A study of Mus musculus with 8 samples.

Results

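The 10 genes described here are Nr3c1, which encodes the glucocorticoid receptor, and 9 genes known as its transcriptional targets: Fkbp5, Zbtb16, Per1, Tsc22d3, Ddit4, Klf9, Sgk1, Cebpd and Fam107a. They were taken by name, as every probe set that the array's gene annotation assigns to one of these symbols alone, which gave 31 of 45037 probe sets for 10 of 18193 genes. These genes and the gene lists used below were chosen with earlier results of these data known. The arrays came from hearts of male mice, 6 to 8 weeks old, given 1 intraperitoneal injection of doxorubicin (DOX, an anthracycline chemotherapy drug that damages the heart) at 15 mg per kg or the same volume of saline, and killed on day 4. There were 4 groups of 2 arrays each: MT-/- mice given DOX, MT+/+ mice given DOX, MT-/- mice given saline and MT+/+ mice given saline. MT-/- denotes mice stated to be null for metallothionein I and II, the metal-binding proteins encoded by Mt1 and Mt2, and MT+/+ the corresponding wild type. The strain background, the design of the null alleles and the time of day at which hearts were taken were not given in the sources used here. Labels call the 2 arrays of a group biological replicates without naming the animals, so each p-value measures only the spread between these arrays, which may be technical.

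The glucocorticoid receptor is a ligand-activated transcription factor that waits in the cytoplasm in a complex with the chaperone Hsp90, enters the nucleus when it binds corticosterone or cortisol, and binds glucocorticoid response elements, a pair of inverted half-sites spaced by a few bases. Several of its targets feed back on it or carry its actions: Fkbp5 lowers the receptor's affinity for hormone, Tsc22d3 carries part of its anti-inflammatory action, and Per1 links it to the circadian clock. Cardiomyocytes express the receptor, and mouse hearts that lack it in these cells are known to enlarge and fail.

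The promoter sequences of the members are shown because they hold, or lack, the element to which the receptor binds. RefSeq windows on GRCm38.p6, reaching from 250 bases before a transcription start to 50 bases after it, were used for 7 members in 17 windows. Zbtb16 and Cebpd are named only. The letters searched on both strands were the full response element (AGAACA, any 3 bases and TGTTCT), a relaxed form of it that covers every full one (GNACA, any 3 bases and TGTNC), the half-site AGAACA, which is also part of the full element, the E-box CACGTG, a site of clock factors, and the cAMP response element TGACGTCA. Of 32851 mouse windows, 3 held the full element, a share of 0.00913%, and 156 held the relaxed form, a share of 0.475%. The half-site was in 19.0%, the E-box in 7.15% and the cAMP response element in 1.79% of windows. Of the 7 members, 5 are printed here, each by the window with the most matches, 5′ to 3′ on the strand of the gene, with matched letters in capitals.
Sgk1, chr10:21993640-21993939, plus strand: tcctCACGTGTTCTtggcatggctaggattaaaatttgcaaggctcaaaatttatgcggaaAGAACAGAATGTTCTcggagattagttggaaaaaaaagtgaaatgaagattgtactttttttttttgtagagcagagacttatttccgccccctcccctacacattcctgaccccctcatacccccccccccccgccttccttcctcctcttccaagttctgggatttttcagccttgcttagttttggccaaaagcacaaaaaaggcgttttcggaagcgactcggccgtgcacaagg
Fam107a, chr14:8309730-8310029, minus strand: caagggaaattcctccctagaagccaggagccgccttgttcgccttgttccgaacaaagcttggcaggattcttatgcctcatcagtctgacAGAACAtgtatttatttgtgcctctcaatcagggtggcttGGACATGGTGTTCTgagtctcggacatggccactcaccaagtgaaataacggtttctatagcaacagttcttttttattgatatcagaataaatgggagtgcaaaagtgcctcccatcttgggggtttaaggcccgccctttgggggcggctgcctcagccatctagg
Fkbp5, chr17:28486100-28486399, minus strand: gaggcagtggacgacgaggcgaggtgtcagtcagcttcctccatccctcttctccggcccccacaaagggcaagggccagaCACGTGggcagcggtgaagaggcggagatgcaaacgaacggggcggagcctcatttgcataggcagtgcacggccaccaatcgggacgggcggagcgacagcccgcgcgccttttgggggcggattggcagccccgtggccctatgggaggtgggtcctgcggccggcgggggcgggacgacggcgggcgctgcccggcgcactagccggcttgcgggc
Per1, chr11:69098699-69098998, plus strand: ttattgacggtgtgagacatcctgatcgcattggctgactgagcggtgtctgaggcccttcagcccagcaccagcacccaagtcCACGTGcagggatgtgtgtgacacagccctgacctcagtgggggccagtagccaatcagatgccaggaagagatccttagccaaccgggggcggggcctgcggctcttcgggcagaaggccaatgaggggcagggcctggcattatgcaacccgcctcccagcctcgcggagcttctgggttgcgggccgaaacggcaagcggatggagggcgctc
Tsc22d3, chrX:140600473-140600772, minus strand: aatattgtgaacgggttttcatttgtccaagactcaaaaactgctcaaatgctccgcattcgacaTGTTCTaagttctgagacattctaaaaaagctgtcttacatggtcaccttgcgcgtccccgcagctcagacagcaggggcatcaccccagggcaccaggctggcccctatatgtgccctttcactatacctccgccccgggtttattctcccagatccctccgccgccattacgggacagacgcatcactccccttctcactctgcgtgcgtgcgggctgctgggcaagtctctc
The Sgk1 window held the full element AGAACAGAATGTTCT, starting 189 bases before the start site, and an E-box that overlaps a half-site 246 bases before it. Sgk1 had 6 windows in all, and this was the one with a full element. The Fam107a window held the relaxed form GGACATGGTGTTC, 118 bases before the start site, overlapping a half-site. Fkbp5 and Per1 showed an E-box, and Tsc22d3 a half-site. The windows of Ddit4 and Klf9 held none of the letters searched. A match of letters is a description of the sequence and was not measured as binding, and most known sites of this receptor lie outside such windows.

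The arrays resembled each other closely, with a median signal of 80 to 87.4 and correlations of log2 values of 0.976 to 0.984 within groups and 0.924 to 0.985 between groups. The 9 cardiomyocyte markers lay at or above percentile 97.2 of probe sets on every array. By the brightest probe set of each, the genes stated to be inactivated had mean signals no lower in hearts labelled MT-/- than in those labelled MT+/+, after either treatment. Mt1 read 12549 and 12850 in MT-/- DOX hearts and 6735 and 9285 in MT+/+ DOX hearts, against 4667 and 5322 in MT-/- saline hearts and 3722 and 4034 in MT+/+ saline hearts. The name of this probe set carries the manufacturer's mark for probes shared by several transcripts. A dim second Mt1 probe set, without that mark, read 63 and 87 in MT-/- DOX hearts and 83 and 103 in MT+/+ DOX hearts, against 67 and 70 in MT-/- saline hearts and 68 and 70 in MT+/+ saline hearts, and was lower after DOX in MT-/- hearts by a log2 difference of -0.23 that did not pass (limma, adjusted p 0.849). Mt2 read 2218 and 2213 in MT-/- DOX hearts and 1210 and 2732 in MT+/+ DOX hearts, against 968 and 1018 in MT-/- saline hearts and 452 and 485 in MT+/+ saline hearts. Which part of either gene the null alleles remove, and where these probes lie in it, were not given in the sources used here, so the genotypes below are those of the labels, and every direction between them rests on these labels.

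After DOX, most of the members were higher in the heart and the receptor's own transcript was lower. Averaged over the genotypes, 22 of 27 tested member probe sets passed the test between 4 DOX and 4 saline arrays, 18 higher and 4 lower (limma, adjusted p under 0.05 over 24751 tested probe sets), where 13.9% of all tested probe sets passed, 7.03% higher and 6.84% lower. Taking for each gene its brightest tested probe set, Fkbp5, Zbtb16, Per1, Tsc22d3, Ddit4, Klf9, Cebpd and Fam107a rose, Nr3c1 fell, and Sgk1 did not pass. The median log2 difference of the 27 probe sets was 0.88, beside a median of -0.001 over all tested probe sets. Of the 27, the DOX arrays lay entirely above the saline arrays for 17 and entirely below for 4, while 6 overlapped; 18.4% of all tested probe sets did not overlap, 9.61% higher and 8.83% lower. Of the 31, 4 did not reach the filter, an array's median signal on at least 2 arrays, and tested without the filter 22 of 31 passed, 19 higher and 3 lower, where 7.09% of 45037 did, 3.55% higher and 3.54% lower. In whole hearts, fewer cells of a type and less RNA per cell cannot be told apart.

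**Figure D1:**
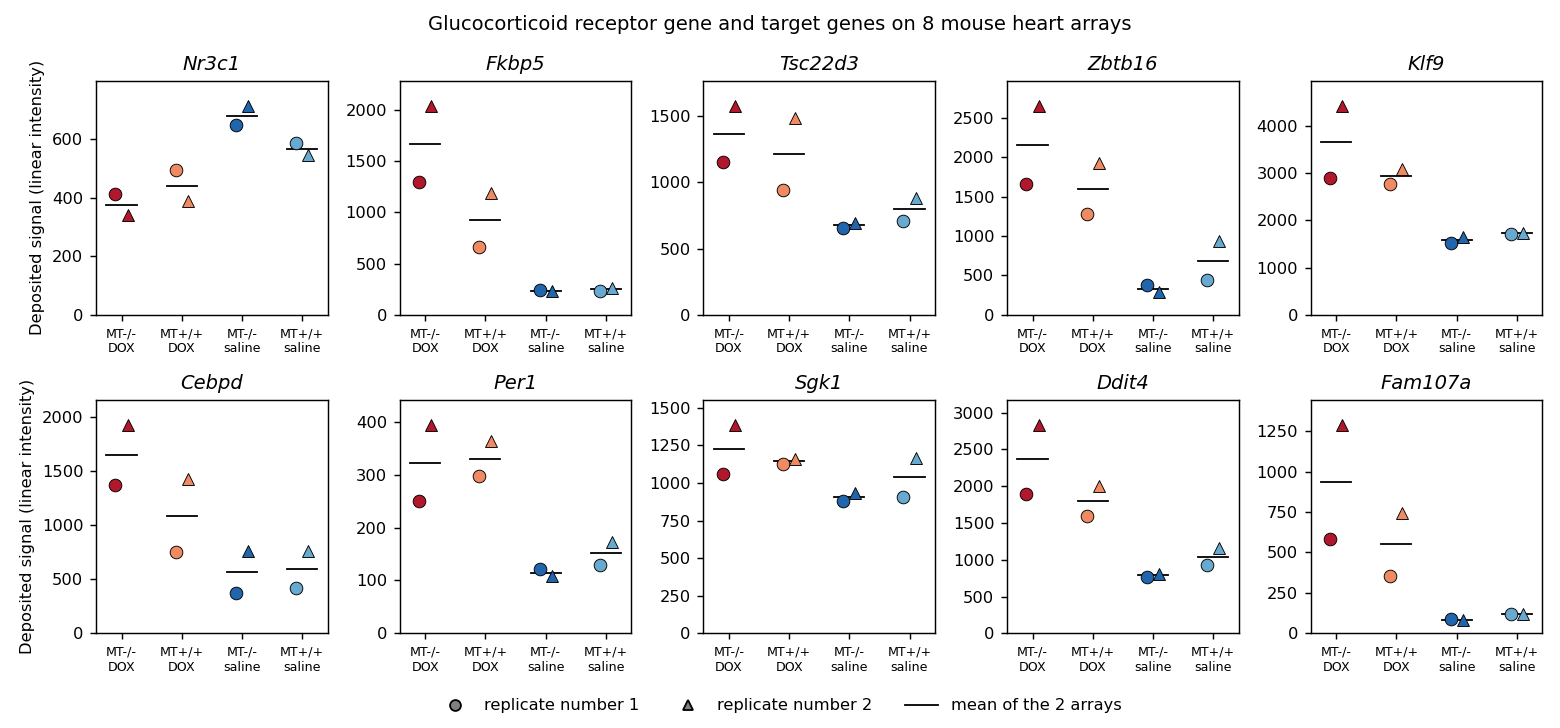
Deposited signal (linear array intensity, vertical axis from 0) of each gene's brightest tested probe set on every array, with MT-/- DOX, MT+/+ DOX, MT-/- saline and MT+/+ saline from left to right; circles and triangles mark replicate numbers 1 and 2 and bars the mean of the 2 arrays. In every gene other than Nr3c1 the DOX means stand above the saline means, and in Nr3c1 the DOX means stand below. In Sgk1 and Cebpd the DOX and saline arrays overlap.

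The receptor itself, Nr3c1, was measured by 6 probe sets. The brightest read 413 and 340 in MT-/- DOX hearts and 494 and 389 in MT+/+ DOX hearts, against 647 and 713 in MT-/- saline hearts and 587 and 547 in MT+/+ saline hearts. Every DOX array lay below every saline array. The difference was -0.61 ± 0.12 on the log2 scale (standard error, 4 arrays against 4), or 1.52-fold lower, with an adjusted p of 0.0135 (limma). Without MT-/- saline replicate 1 or replicate 2 the call was lost, with an adjusted p of up to 0.0504. Of the other 5 probe sets, all of them negative, 2 passed at -0.46 and -0.56, and 3 did not, at -0.40, -0.20 and -0.01. The -0.46 call had an adjusted p of 0.0485 and was kept in 1 of 8 fits that each left out an array, namely that without MT-/- DOX replicate 1. It was also lost on the deposited scaling (adjusted p 0.0504), with median centring (0.0651) and with no filter (0.0604). The -0.56 call had an adjusted p of 0.0177 and was kept in 6 of 8, being lost without MT+/+ DOX replicate 2 or MT-/- saline replicate 2. The probe set at -0.20 was dim, reading 82 to 105 in DOX hearts and 93 to 126 in saline hearts, and the one at -0.01 read 80 to 90 in DOX hearts and 80 to 93 in saline hearts.

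Among the genes that act on the receptor's own pathway, Fkbp5, the Hsp90 co-chaperone that restrains the receptor, rose in both genotypes. Its signals were 1292 and 2036 in MT-/- DOX hearts and 663 and 1186 in MT+/+ DOX hearts, against 239 and 235 in MT-/- saline hearts and 235 and 261 in MT+/+ saline hearts. No DOX array came near the saline range, and the saline arrays of both genotypes nearly coincided. The log2 difference was 2.20 ± 0.19, or 4.60-fold, with an adjusted p of 0.000309 (limma). A separate Fkbp5 probe set gave 1.82, and another, never above the array median, read 9 to 15 in DOX hearts and 12 to 18 in saline hearts and was not tested.

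Tsc22d3, the leucine zipper protein also called GILZ, rose less. Its brightest probe set read 1156 and 1574 in MT-/- DOX hearts and 941 and 1485 in MT+/+ DOX hearts, against 656 and 695 in MT-/- saline hearts and 709 and 880 in MT+/+ saline hearts. All DOX arrays were above all saline arrays, at 0.74 ± 0.15 on the log2 scale, or 1.67-fold, with an adjusted p of 0.0153 (limma). The call was lost without MT+/+ saline replicate 1 or either MT-/- saline array, with an adjusted p of up to 0.0546. A separate probe set agreed in direction at 0.86 and passed in all 8 fits that left out an array. A dim Tsc22d3 probe set ran the other way, reading 51 and 47 in MT-/- DOX hearts and 47 and 51 in MT+/+ DOX hearts, against 113 and 116 in MT-/- saline hearts and 87 and 95 in MT+/+ saline hearts. It passed the filter through 3 saline arrays and no DOX array, so that its fall of 0.85 on the log2 scale is the only direction the filter allowed it; tested with no filter its adjusted p was 0.00026 (limma). The probe sets of this gene therefore disagree, and which transcript each one reports was not given in the sources used here.

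Of the transcription factors, Zbtb16 (PLZF), a zinc-finger repressor, rose most. Its brightest probe set read 1658 and 2652 in MT-/- DOX hearts and 1276 and 1924 in MT+/+ DOX hearts, against 376 and 286 in MT-/- saline hearts and 437 and 938 in MT+/+ saline hearts. No saline array reached a DOX array, though MT+/+ saline replicate 2, at 938, stood well above the other saline arrays. The log2 difference was 1.90 ± 0.26, or 3.73-fold, with an adjusted p of 0.0025 (limma), and the other probe sets gave 0.80 and 2.05, both past the test. The name of the brightest probe set carries the manufacturer's mark for probes that also match other transcripts.

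Klf9, a Krüppel-like factor that glucocorticoids and thyroid hormone induce, had the most probe sets. The brightest read 2892 and 4415 in MT-/- DOX hearts and 2774 and 3089 in MT+/+ DOX hearts, against 1517 and 1643 in MT-/- saline hearts and 1717 and 1730 in MT+/+ saline hearts. The DOX arrays were all higher, by 0.92 ± 0.12 on the log2 scale, or 1.89-fold, with an adjusted p of 0.0025 (limma). All 6 tested Klf9 probe sets passed, between 0.57 and 1.05. One of them passed the filter through 4 DOX arrays and 1 saline array, and another, with an adjusted p of 0.0207, kept its call in 3 of 8 fits that left out an array, losing it without any of the MT+/+ arrays or MT-/- saline replicate 1. The seventh, at 18 to 28 in DOX hearts and 19 to 27 in saline hearts, was not tested.

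Cebpd, a leucine zipper factor of the acute-phase response, was the least even of the called genes. It read 1369 and 1933 in MT-/- DOX hearts and 749 and 1427 in MT+/+ DOX hearts, against 371 and 758 in MT-/- saline hearts and 420 and 766 in MT+/+ saline hearts. The lowest DOX array, at 749, lay below 2 saline arrays, so the groups overlapped. The log2 difference was 1.18 ± 0.28, or 2.26-fold, with an adjusted p of 0.0256 (limma). It was lost without MT+/+ saline replicate 1, MT+/+ DOX replicate 2, MT-/- saline replicate 1 or MT-/- DOX replicate 2, with an adjusted p of up to 0.0835, and the other probe set, at 0.57, had an adjusted p of 0.137.

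Per1, a repressor of the circadian clock that glucocorticoids also induce directly, had 1 probe set. It read 251 and 395 in MT-/- DOX hearts and 298 and 363 in MT+/+ DOX hearts, against 121 and 109 in MT-/- saline hearts and 130 and 173 in MT+/+ saline hearts. All DOX arrays were higher, by 1.19 ± 0.15 on the log2 scale, or 2.28-fold, with an adjusted p of 0.002 (limma). Other clock genes moved beside it, as described further on, and the part of the time of day in the Per1 difference was not tested.

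The remaining targets act in metabolism, ion transport and the cytoskeleton. Ddit4 (REDD1), an inhibitor of mTOR complex signalling that stress and glucocorticoids induce, read 1896 and 2836 in MT-/- DOX hearts and 1596 and 1995 in MT+/+ DOX hearts, against 772 and 810 in MT-/- saline hearts and 925 and 1156 in MT+/+ saline hearts. It rose by 1.11 ± 0.14 on the log2 scale, or 2.16-fold, with an adjusted p of 0.0018 (limma) and no overlap. Fam107a, an actin-binding protein known as a stress-induced gene in the mouse brain, rose most of all members by fold. It read 584 and 1291 in MT-/- DOX hearts and 356 and 746 in MT+/+ DOX hearts, against 87 and 83 in MT-/- saline hearts and 117 and 118 in MT+/+ saline hearts. The saline arrays lay far below the lowest DOX array. The log2 difference was 2.55 ± 0.26, or 5.86-fold, and the adjusted p was 0.000634 (limma). A separate Fam107a probe set gave 1.87, and another, at 50 to 87 in DOX hearts and 25 to 31 in saline hearts, reached the array median on 1 array and was higher by 0.97 with an adjusted p of 0.000174 (limma) when tested with no filter.

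Sgk1, a kinase that regulates ion channels and carriers, is the member whose window holds the full response element, and it was the one gene that did not pass. It read 1063 and 1389 in MT-/- DOX hearts and 1126 and 1163 in MT+/+ DOX hearts, against 881 and 937 in MT-/- saline hearts and 907 and 1169 in MT+/+ saline hearts. MT+/+ saline replicate 2, at 1169, lay above 3 of the 4 DOX arrays. The log2 difference was 0.24 ± 0.11 with an adjusted p of 0.215 (limma) and a 95% interval of -0.02 to 0.49.

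Within each genotype the 10 genes, by their brightest tested probe sets, had the same signs as in the average, with fewer calls. In MT-/- hearts, DOX against saline gave 20 of 27 called member probe sets, 17 higher and 3 lower, where 6.21% of all tested probe sets passed, 2.83% higher and 3.38% lower. Of these calls 7 were kept whichever array was left out, and the count was 10 without MT-/- saline replicate 1, 8 without MT-/- saline replicate 2 and 9 without MT-/- DOX replicate 2. In MT+/+ hearts it gave 5 of 27, 4 higher and 1 lower, where 2.48% of all tested passed, 1.22% higher and 1.26% lower. None of the 5 was kept through every such fit: the count was 0 without MT+/+ saline replicate 1, MT+/+ saline replicate 2 or MT+/+ DOX replicate 2, it was 2 without MT+/+ DOX replicate 1, 1 without either MT-/- saline array, and 8 without either MT-/- DOX array. The 5 calls in MT+/+ hearts were both tested Fkbp5 probe sets, Per1, the brightest Fam107a probe set and the dim Tsc22d3 probe set that fell. The median log2 difference was 1.16 in MT-/- hearts and 0.61 in MT+/+ hearts, beside medians over all tested probe sets of 0.01 and -0.01.

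By gene, the log2 difference between DOX and saline was numerically larger in MT-/- than in MT+/+ hearts for 9 of the 10 genes, Nr3c1, with the larger fall, being the exception in sign. Fkbp5 differed by 2.66 in MT-/- and 1.74 in MT+/+ hearts (limma, adjusted p 0.00138 and 0.0156), and Fam107a by 3.08 and 2.02 (0.00278 and 0.0285). Per1 differed by 1.32 in MT-/- and 1.06 in MT+/+ hearts, with adjusted p of 0.0111 and 0.0452 (limma). Zbtb16, at 2.60 in MT-/- and 1.20 in MT+/+ hearts, passed in MT-/- and missed the threshold in MT+/+ hearts (limma, adjusted p 0.00586 and 0.134), as did Ddit4 at 1.53 and 0.69 (0.00403 and 0.12). The same held for Klf9 at 1.18 in MT-/- and 0.67 in MT+/+ hearts (limma, adjusted p 0.00769 and 0.0944), for Tsc22d3 at 0.995 and 0.48 (0.0335 and 0.316) and for Nr3c1 at -0.79 and -0.43 (0.034 and 0.258). Cebpd, at 1.57 in MT-/- and 0.78 in MT+/+ hearts, passed in neither (limma, adjusted p 0.0519 and 0.38), nor did Sgk1 at 0.42 and 0.05 (0.17 and 0.917).

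The difference between these effects was tested as an interaction, and 0 of 27 member probe sets passed, as did 0% of all tested probe sets. At an unadjusted p under 0.05, 4 of 27 did, beside 2.32% of all tested: Zbtb16 at 1.39 with a 95% interval of 0.22 to 2.56, Fkbp5 at 0.92 with 0.08 to 1.77, Ddit4 at 0.85 with 0.21 to 1.48, and a dim Klf9 probe set at 0.49 with 0.09 to 0.89. Their adjusted p was 1 (limma). The other Zbtb16 probe sets gave 0.42 and 1.13 with unadjusted p of 0.106 and 0.116 (limma). The other tested Fkbp5 probe set gave 0.86 with an unadjusted p of 0.054 (limma). A p that misses the threshold with 2 arrays a group does not show that the genotypes responded alike.

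**Figure D2:**
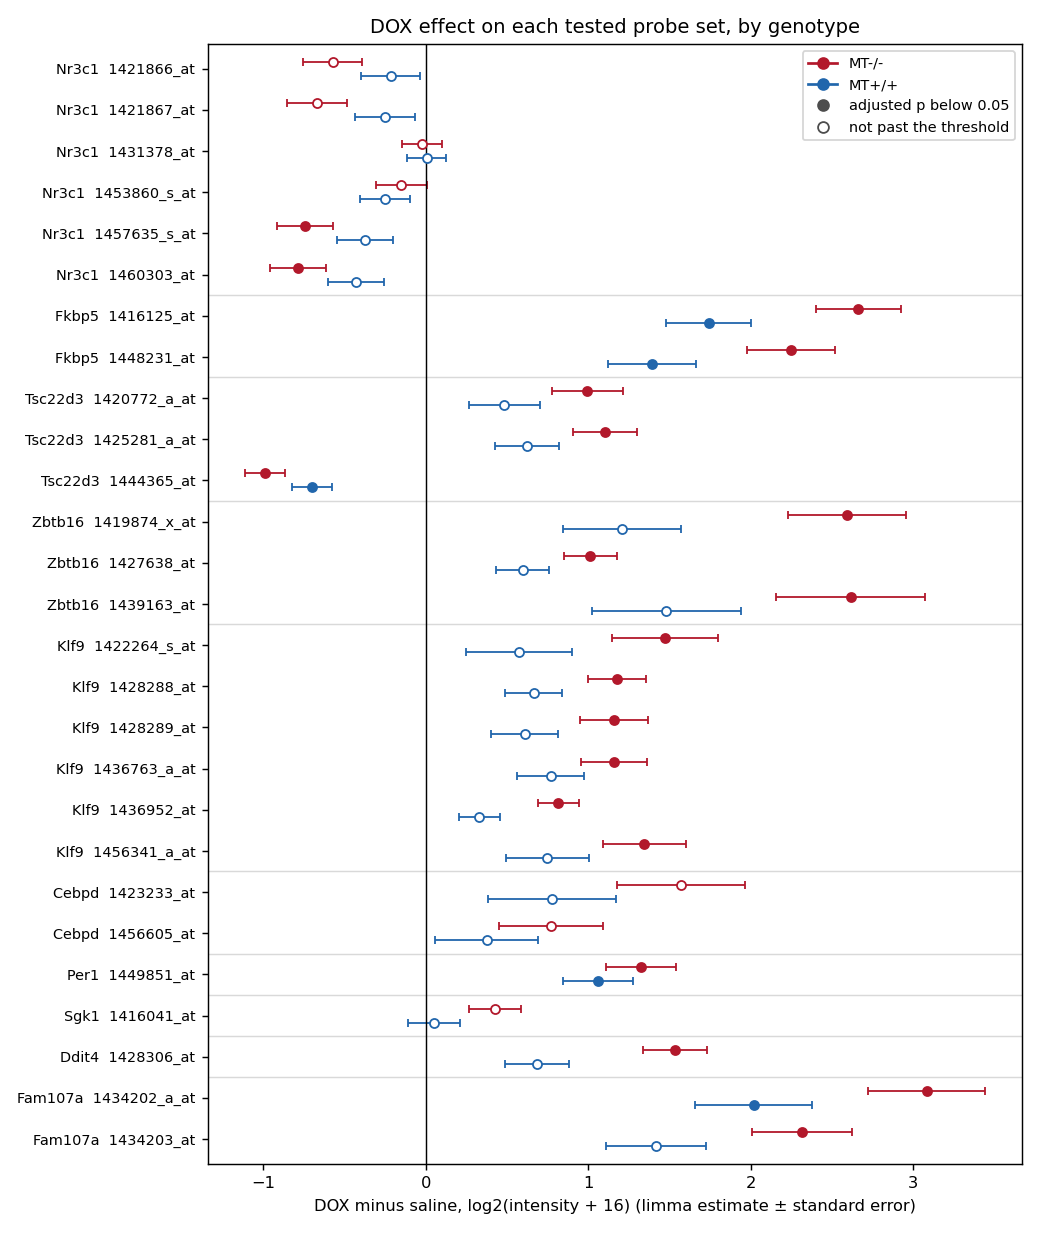
Log2 difference between DOX and saline (horizontal axis) in MT-/- hearts (upper point of each pair) and MT+/+ hearts (lower point) for all 27 tested member probe sets, with standard errors from the fit; filled points passed the test. The brightest Fam107a probe set lies furthest right in both genotypes, at 3.08 in MT-/- and 2.02 in MT+/+ hearts, and 1 Tsc22d3 probe set and most of Nr3c1 lie left of 0.

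Set directly against each other, the genotypes gave no member call. After DOX, 0 of 27 member probe sets passed between MT-/- and MT+/+ hearts, where 0.283% of all tested probe sets did, and 3 of 27 had an unadjusted p under 0.05, beside 7.39% of all tested. Fkbp5 was 0.80 higher on the log2 scale in MT-/- DOX than in MT+/+ DOX hearts, with a standard error of 0.26 and an adjusted p of 0.456 (limma). Both MT-/- arrays lay above both MT+/+ arrays, and how many of all tested probe sets did so was not counted. The other tested Fkbp5 probe set gave 0.86 with an adjusted p of 0.422 (limma). Under saline, 0 of 27 passed, where 0.186% of all tested did, and 3 had an unadjusted p under 0.05, beside 8.62% of all tested. There the MT-/- values were numerically lower for 9 of the 10 genes, and for 12 of 27 probe sets both MT-/- saline arrays lay below both MT+/+ saline arrays, where 20.0% of all tested probe sets did so. Zbtb16 differed most, by -1.04 (limma, adjusted p 0.494), and Ddit4 by -0.52 (0.533). For Zbtb16 the arrays numbered 1 gave -0.26 and those numbered 2 gave -1.82, MT+/+ saline replicate 2 being the high array. Its other probe sets gave -0.21 and -0.71. Averaged over the treatments, 0 of 27 passed, where 0.905% of all tested did, and 0 had an unadjusted p under 0.05, beside 13% of all tested.

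Split by the replicate number of the labels, the DOX arrays numbered 2 mostly read higher than those numbered 1. By the brightest tested probe sets this held in both genotypes for all 9 genes other than Nr3c1, beside 31.5% of all tested probe sets. In both saline groups it held for 1 of the 9, Cebpd, beside 34% of all tested. Other tested probe sets of Fkbp5, Zbtb16, Cebpd and Fam107a also read higher by number 2 in both DOX groups. Those of Klf9 read lower in MT+/+ DOX hearts, by -0.06 to -0.48 on the log2 scale. The dim Tsc22d3 probe set was at -0.09 in MT-/- DOX hearts, and Sgk1 was higher by only 0.01 in MT+/+ DOX hearts. Fam107a showed the widest gap, with a DOX minus saline difference on the log2 scale of 2.05 from arrays numbered 1 and 3.05 from arrays numbered 2, averaged over genotypes. Fkbp5 gave 1.89 and 2.51, Zbtb16 1.77 and 2.03, and Klf9 0.72 and 1.13. Per1 gave 1.07 and 1.31, Ddit4 0.97 and 1.25, and Tsc22d3 0.56 and 0.92. Nr3c1 was lower by both numbers, at -0.45 and -0.76, and Sgk1 was at 0.24 by both. Cebpd gave 1.29 and 1.06 by its brightest probe set and 0.53 and 0.62 by the other. Its number 2 arrays were higher in all 4 groups, a pattern of 19.2% of tested probe sets and of both Cebpd probe sets but no other member. In MT+/+ hearts alone, numbers 1 and 2 gave 1.47 and 0.94 for Zbtb16 and 1.18 and 0.94 for Per1. For Ddit4 they gave 0.689 and 0.681 there, and for Sgk1 0.22 and -0.11. So number 2 gave the smaller difference for these genes in MT+/+ hearts and the larger in MT-/- hearts. For Fkbp5, Fam107a, Klf9, Tsc22d3 and Cebpd, by their brightest probe sets, number 2 gave the larger in MT+/+ hearts. What the number marks was not given in the sources used here. By either number the called genes other than Nr3c1 lay above 0 in both genotypes, with the lowest value, 0.32, in Tsc22d3 of MT+/+ hearts numbered 1.

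**Figure D3:**
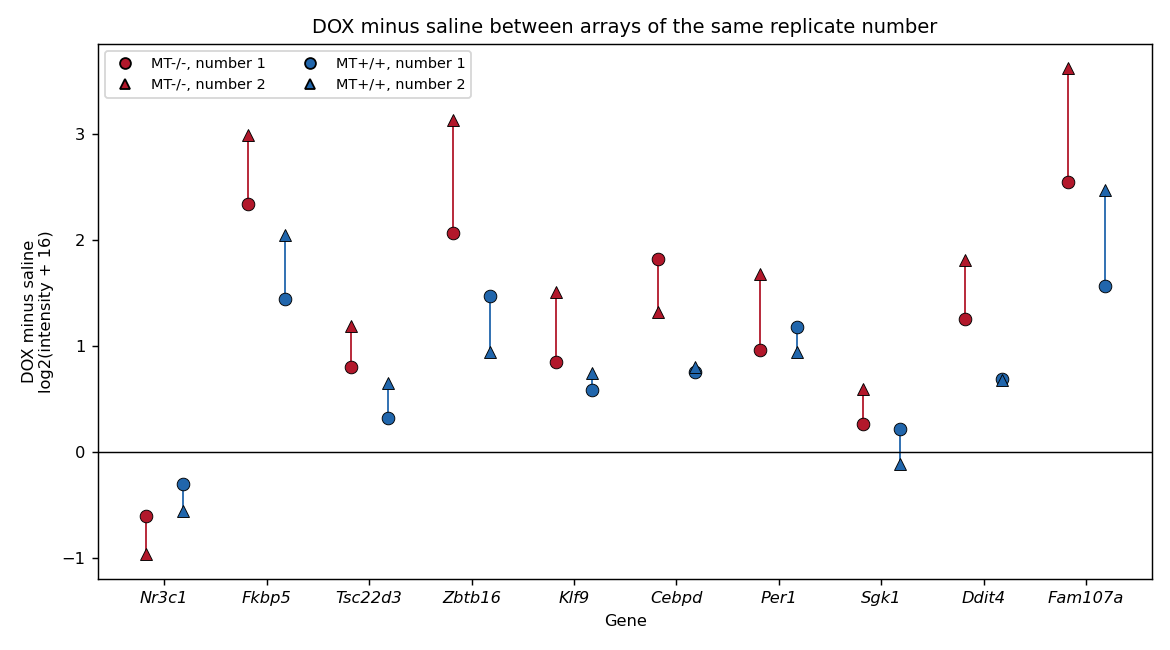
Log2 difference between DOX and saline (vertical axis) computed from arrays of the same replicate number, for each member in MT-/- and MT+/+ hearts; circles and triangles mark numbers 1 and 2. Number 2 lies higher for Fam107a and Fkbp5 in both genotypes, and Nr3c1 lies below 0 at all 4 points.

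Of 18 listed co-chaperones, hormone-converting enzymes, coactivators and corepressors around the receptor, 13 were tested, 2 rose and 2 fell, with a median log2 difference of 0.07, where 13.9% of all tested probe sets passed. Hsd11b1, the enzyme that regenerates active glucocorticoid inside cells, read 1858 and 2349 in MT-/- DOX hearts and 1066 and 1397 in MT+/+ DOX hearts, against 586 and 751 in MT-/- saline hearts and 445 and 784 in MT+/+ saline hearts. It rose by 1.28 ± 0.18 on the log2 scale (limma, adjusted p 0.00298), and H6pd, which supplies its cofactor, by 0.37 ± 0.09 (0.0316). Fkbp4, the co-chaperone that favours the receptor's transport and competes with Fkbp5, fell, reading 764 and 607 in MT-/- DOX hearts and 1186 and 926 in MT+/+ DOX hearts, against 1625 and 1558 in MT-/- saline hearts and 1703 and 1653 in MT+/+ saline hearts. Its difference was -0.98 ± 0.13 with an adjusted p of 0.00234 (limma), while a dimmer Fkbp4 probe set gave 0.09 and did not pass. The Hsp90 co-chaperone Stip1 fell by 0.45 ± 0.12 on the log2 scale, with an adjusted p of 0.0371 (limma).

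Of 36 other genes known to be induced by glucocorticoids, 35 were tested, 14 rose and 0 fell, with a median of 0.33. This list was chosen with earlier results of these data known, so its count is a description. Over all tested probe sets, 7.03% passed higher and 6.84% lower. Map3k6, a stress kinase, read 177 to 307 in DOX hearts and 52 to 79 in saline hearts, a rise of 1.62 ± 0.08 with an adjusted p of 4.32e-05 (limma). It passed the filter through 4 DOX arrays and no saline array, so that a rise was the only direction the filter allowed it, and tested with no filter its adjusted p was 2.17e-05 (limma). Ptgds, which makes prostaglandin D, rose by 1.22, and Mt1 by 1.18. The dim second Mt1 probe set gave 0.24 and did not pass (limma, adjusted p 0.196). Lcn2, an iron-carrier protein of the acute phase, rose by 2.54 ± 0.19, but unevenly, reading 1737 and 1912 in MT-/- DOX hearts and 208 and 398 in MT+/+ DOX hearts, against 89 and 116 in MT-/- saline hearts and 104 and 139 in MT+/+ saline hearts. Between the genotypes after DOX, Lcn2 was higher in MT-/- hearts by 2.53 (limma, adjusted p 0.00871). Pdk4, the kinase that restrains glucose oxidation, was lower there by 1.87, reading 1493 and 2025 in MT-/- DOX hearts, against 5379 and 6830 in MT+/+ DOX hearts (limma, adjusted p 0.0258); DOX against saline gave 0.07 for it, with an adjusted p of 0.868. By genotype, Pdk4 gave -0.46 in MT-/- and 0.59 in MT+/+ hearts (limma, adjusted p 0.372 and 0.288), and the interaction of -1.05 had an adjusted p of 1. Averaged over the treatments, 5 of the 35 genes were called between MT-/- and MT+/+ hearts, where 0.905% of all tested probe sets were. Lcn2, Ptgds and Mt1 were higher in MT-/- hearts by 1.17, 0.91 and 0.50 (limma, adjusted p 0.0337, 0.0188 and 0.0425), and Pdk4 was lower at -1.34 (0.0134). Mt1 is stated to be inactivated in MT-/- mice, and its call rests on the probe set marked as shared by several transcripts. The dim second Mt1 probe set gave -0.09 in this comparison (limma, adjusted p 0.784). The fifth, Angptl4, an inhibitor of lipoprotein lipase, read 97 and 83 in MT-/- DOX hearts and 226 and 201 in MT+/+ DOX hearts, against 148 and 87 in MT-/- saline hearts and 182 and 164 in MT+/+ saline hearts, a difference of -0.81 (limma, adjusted p 0.0471). Pdk4 and Angptl4 are named after their values were seen.

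Beside Per1, 15 listed clock genes were measured and 14 of them tested, with a median of 0.32. Of these 5 rose and 1 fell, where 7.03% of all tested probe sets passed higher and 6.84% lower. The rising genes included the output factors Tef at 1.20 ± 0.12 (limma, adjusted p 0.000552) and Dbp at 1.37 ± 0.17 (0.0015). Nr1d2, a nuclear receptor that represses Arntl, rose by 1.03 ± 0.13 (0.00162 by limma), and Cry2, a partner of the Per proteins, by 0.76 ± 0.12 (0.00545). Arntl, named after its values were seen as the 1 gene that fell, read 110 to 180 in DOX hearts and 193 to 299 in saline hearts.

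Of 14 inflammatory genes that glucocorticoids are known to lower, 10 were tested, with a median of -0.13. Beside 7.03% of all tested probe sets that passed higher and 6.84% lower, 0 rose and 2 fell. These were the chemokines Ccl2, at 108 to 143 in DOX hearts and 180 to 205 in saline hearts, and Ccl7, at 48 to 59 in DOX hearts and 79 to 88 in saline hearts. Their log2 differences were -0.51 ± 0.10 and -0.49 ± 0.09, with adjusted p of 0.0135 and 0.00793 (limma). Ccl7 passed the filter through 2 saline arrays and no DOX array, so that a fall was the only direction the filter allowed it, and tested with no filter its adjusted p was 0.00474 (limma). Il1b, at -0.13, and Vcam1, at -0.13, did not pass. All 8 macrophage markers fell in DOX hearts too, with a summed normalized level of 4556 to 5823 in DOX hearts and 8768 to 10752 in saline hearts, and their part in these differences was not tested.

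Gene relatives that share a family with a member did not move as one. Of 17, 16 were tested, with a median of -0.11. Of these 2 rose and 3 fell, where 7.03% of all tested probe sets passed higher and 6.84% lower. Klf15, a Krüppel-like factor also induced by glucocorticoids, rose by 1.51 ± 0.26 (limma, adjusted p 0.0067), and Cebpb, a relative of Cebpd, by 0.87 ± 0.16 (0.0102). Tsc22d4 fell by 0.58 ± 0.09 on the log2 scale, opposite to the brightest probe set of Tsc22d3, with an adjusted p of 0.00481 (limma), and Fkbp4 fell as described for the receptor machinery.

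**Figure D4:**
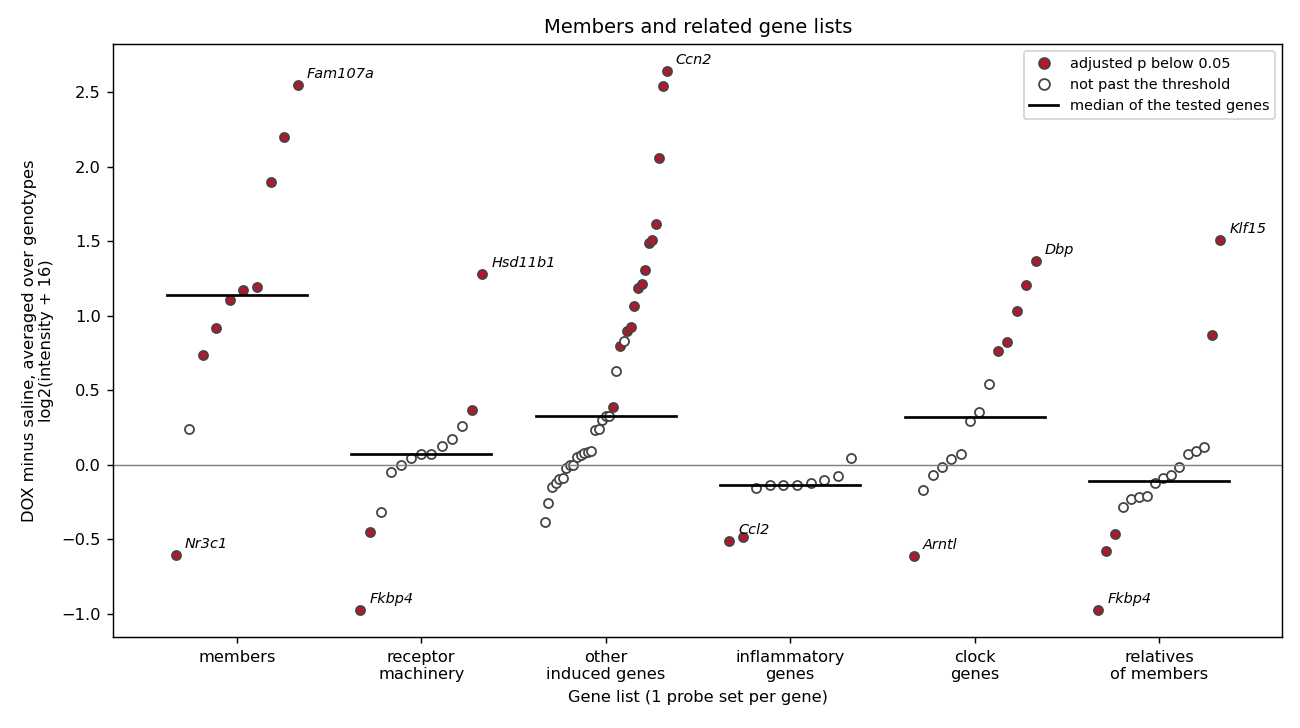
Log2 difference between DOX and saline averaged over genotypes (vertical axis) for each tested gene of the 10 members and of 5 lists, 1 point a gene; filled points passed the test and bars mark medians. The median of the members is 1.14, the list of other induced genes has 14 filled points above 0, and the inflammatory list has 2 filled points below 0. Members and lists were chosen with earlier results of these data known. Over all tested probe sets, 7.03% passed higher and 6.84% lower.

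Across the 8 arrays, the genes whose profile lay nearest to that of Fkbp5 were found by the root mean square difference between log2 values centred on each gene's own mean, over 13007 tested genes. The nearest gene was Slc10a6, a carrier of sulfated steroids, at 0.229 log2 units, followed by Cnksr1, a signalling scaffold that reached the array median on DOX arrays alone, at 0.238. Fam107a, itself a member, ranked 3 at 0.239. Slc10a6 read 526 and 969 in MT-/- DOX hearts and 214 and 431 in MT+/+ DOX hearts, against 93 and 97 in MT-/- saline hearts and 134 and 128 in MT+/+ saline hearts. The proteoglycan gene Spock2 followed at 0.265, then Igfbp3, a carrier of insulin-like growth factors, at 0.323, and Sult1a1, a sulfotransferase, at 0.337. Of the other members, Zbtb16 ranked 21 at 0.466, Cebpd 62, Ddit4 63, Per1 72, Klf9 119 and Tsc22d3 193. Sgk1 ranked 1648 and Nr3c1 12615, near the far end. These ranks describe 8 arrays that differ mainly between DOX and saline, and any gene with a similar rise scores near.

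Markers of other cells moved with DOX in the same arrays, where 7.03% of all tested probe sets passed higher and 6.84% lower. Of 9 fibroblast markers 6 fell, with a summed normalized level of 10298 to 11870 in DOX hearts and 17069 to 20599 in saline hearts. Of 6 tested neutrophil markers 2 rose, S100a8 and S100a9, and the sum read 3634 and 2896 in MT-/- DOX hearts and 1110 and 1075 in MT+/+ DOX hearts, against 876 and 805 in MT-/- saline hearts and 993 and 1659 in MT+/+ saline hearts. Of 9 cardiomyocyte markers 4 fell and 0 rose, with sums of 117973 to 127661 in DOX hearts and 130294 to 132813 in saline hearts. Of 8 endothelial markers 3 fell, and of 4 tested red cell markers 2 fell, both having passed the filter through saline arrays alone. The tested markers of T and B cells (3) and of fat cells (3) gave no call, and no marker was at 0. RNA quality, as the ratio of 3′ to 5′ probes of actin, was 0.913 to 1.18 in DOX hearts and 1.14 to 1.24 in saline hearts, and that of Gapdh was 0.993 to 1.04 in DOX hearts and 0.984 to 1.05 in saline hearts. The part of these shifts in the members' differences was not tested.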

How the data were processed

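Heart RNA was hybridised to 8 Affymetrix arrays of 1 colour, 2 for each of 4 genotype-by-treatment groups. The deposited values are linear intensity signals per probe set, made with GCOS 1.4 per the submitters' processing notes, and other steps were not given in the sources used here. From them, 64 control probe sets were removed, the arrays were quantile normalized, and log2(intensity + 16) was taken. On this scale the fold change of low signals is understated. The filter kept the 24751 of 45037 probe sets that reached an array's median on at least 2 of 8 arrays, and limma 3.58.1 in R 4.3.3 was fitted to the 4 group means with eBayes and a mean-variance trend (4 residual and 4.66 prior degrees of freedom). Adjusted p-values are Benjamini-Hochberg over all 24751 within each of 7 comparisons, with a threshold of 0.05, and all tests are two-sided. The code was tested on simulated data.

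The members and all gene lists were chosen with earlier results of these data known. All members are named. A gene is represented by its tested probe set with the highest mean log2 value. Of each list, up to 4 genes with the smallest p for DOX were named, with Mt1, Mt2 and the 5 genes nearest to Fkbp5; genes outside this rule are marked as named after their values were seen. All 31 member symbols are current in RefSeq. Alternatives were the deposited scaling, median centring, pseudocounts of 4 and 64, no filter, a stricter filter, eBayes without the trend, the compared groups alone, the replicate number as a block, and leaving out each array. An exact permutation of 2 against 2 arrays cannot go below p = 0.333, a limit that does not hold for 4 DOX against 4 saline arrays. No permutation was run for any comparison. The number of arrays limits the precision.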

Additional observations from a re-analysis of the deposited data

Results flagged for a closer look

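One result met the rule for a closer look. A dim Klf9 probe set was higher in both MT-/- than in both MT+/+ arrays after DOX and lower in both under saline. The difference between the genotypes' DOX effects was 0.49 on the log2 scale, with a 95% interval of 0.09 to 0.89, and its interaction test did not pass (limma, adjusted p 1). It read 110 to 159 in DOX hearts and 71 to 88 in saline hearts. The other tested Klf9 probe sets had mean differences of the same signs, 0.25 to 0.66 after DOX and -0.30 to -0.08 under saline. Their arrays overlapped between genotypes after DOX, under saline or in both, so they did not meet the rule. The share of all tested probe sets that met it was not counted.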

How the results depend on the processing

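Averaged over genotypes, the count of called member probe sets was 22, from 17 to 22 when 1 array was left out and from 21 to 24 under the other alternatives, and 16 of the 22 calls were kept in every fit. In MT-/- hearts the count of 20 ran from 8 to 20 with an array left out and from 19 to 25 otherwise. In MT+/+ hearts the count of 5 ran from 0 to 8 with an array left out and from 4 to 15 otherwise, the 15 with the replicate number as a block. With that block the brightest probe sets of Zbtb16, Ddit4, Klf9 and Cebpd passed in MT+/+ hearts (limma, adjusted p 0.0271, 0.0122, 0.0229 and 0.0102), as did a separate Tsc22d3 probe set (0.0231). Cebpd and Sgk1 passed in MT-/- hearts (0.000205 and 0.0459), and the other Cebpd probe set passed averaged over genotypes (0.000536). After DOX, the genotype count of 0 became 1 with that block and ran from 0 to 1 with an array left out. The cause was not tested. Over all tested probe sets the block gave 6702 DOX calls, where the fit without it gave 3433, and it gave 4188, 2740, 1202, 383, 209 and 1 in the other 6 comparisons, which had 1538, 613, 224, 70, 46 and 0 without it. The labels do not say what the number marks. Between groups, the differences of number 2 minus number 1 correlated at 0.36 to 0.542 over probe sets, and with 2 numbers this does not settle a pairing.

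Signs that turned belonged to values that passed no test. The Nr3c1 probe set at -0.01 ran from -0.0594 to 0.0388 averaged over genotypes, from -0.1232 to 0.0735 in MT-/- hearts and from -0.0436 to 0.0529 in MT+/+ hearts with an array left out, and read -0.0232 in MT+/+ hearts on the deposited scaling. With an array left out, the Nr3c1 probe set at -0.20 ran from -0.3029 to 0.0027 in MT-/- hearts, the one at -0.40 from -0.4632 to 0.0284 in MT+/+ hearts and Sgk1 from -0.122 to 0.2217 in MT+/+ hearts. The MT-/- minus MT+/+ difference after DOX ran from -0.3574 to 0.2088 for Per1, from -0.1633 to 0.4534 for Tsc22d3, from -0.0431 to 0.5633 for Klf9 and from -0.0935 to 0.2046 for Sgk1. Under saline it ran from -0.6441 to 0.232 for Cebpd, and the interaction of Per1 ran from -0.0212 to 0.5451.

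With the log2 values of all probe sets of a gene averaged, untested ones included, DOX minus saline kept its sign for each member, at 1.29 for Fkbp5, 1.79 for Fam107a, 1.58 for Zbtb16, 0.87 for Cebpd, 0.77 for Klf9, 0.21 for Tsc22d3, whose probe sets disagree, and -0.37 for Nr3c1, with no test.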

Other observations

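Of the 35 tested genes in the list of known glucocorticoid-induced genes, 14 rose after DOX, where 7.03% of all tested probe sets passed higher. More of the list are given here, named after their values were seen, with risers first and then genes that did not pass. Ccn2, a matrix protein gene of fibrosis also called Ctgf, read 2549 and 11151 in MT-/- DOX hearts and 1910 and 1644 in MT+/+ DOX hearts, against 463 and 668 in MT-/- saline hearts and 375 and 430 in MT+/+ saline hearts, with 1 array far above the rest. Glul, the enzyme that makes glutamine, read 2963 to 6131 in DOX hearts and 1424 to 2177 in saline hearts. Their log2 differences were 2.64 ± 0.37 and 1.31 ± 0.16 (limma, adjusted p 0.00303 and 0.00142). Trim63, a ubiquitin ligase of muscle wasting, rose by 0.80 and Foxo3, a transcription factor upstream of it, by 0.93 (limma, adjusted p 0.0266 and 0.0304). Nfkbia, the inhibitor of NF-κB, rose by 1.07, and Zfp36, which destabilises cytokine transcripts, by 0.90 (limma, adjusted p 0.00372 and 0.0123). The others of the 35 did not pass by their brightest tested probe sets. Among them were Dusp1 at -0.09, Tat at 0.09 and Rgs2 at -0.02 (limma, adjusted p 0.86, 0.686 and 0.975). Errfi1 gave 0.33 and Anxa1 -0.38 (limma, adjusted p 0.286 and 0.0584). Fbxo32 gave 0.83 (limma, adjusted p 0.0858), while a separate Fbxo32 probe set passed as higher (0.0078).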
